A study of Mus musculus with 6 samples.

Results

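The insulin-like growth factor (IGF) system was examined in the inner enamel epithelium (IEE) of the mandibular first molar at E18.5. It was represented by 10 genes, taken by their symbols from a table of 18152 genes, and all 10 were listed and passed the filter on low counts. They are the ligands *Igf1* and *Igf2*, the receptors *Igf1r* and *Igf2r*, the receptor substrates *Irs1* and *Irs2*, and the binding proteins *Igfbp2*, *Igfbp3*, *Igfbp4* and *Igfbp5*. IGF1 and IGF2 are secreted hormones that bind the receptor tyrosine kinase IGF1R, which phosphorylates IRS1 and IRS2 and so recruits PI3-kinase. IGF2R binds IGF2 and carries it to the lysosome, and the binding proteins hold IGFs outside the cell and can block or prolong their action. In developing organs, IGFs are made largely by mesenchyme, while IGF1R is found in most cell types.

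Control libraries (3) came from *Kdf1 fl/fl* mice, which the labels also call WT, and mutant libraries (3) from *K14-Cre;Kdf1 fl/fl* mice, all at E18.5. Floxed *Kdf1* alleles and a C57BL/6J background were shared by both groups, and whether embryos were pooled is not given in the sources used here. In mutant mice, Cre under the keratin 14 promoter deletes *Kdf1* in epithelium, so that mesenchymal, vascular and blood cells keep the gene. IEE was cut from frozen head sections by laser capture, in which an area is excised under the microscope.

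Library totals ranged from 14713918 to 16675133 estimated counts. *Kdf1* was at 53.2, 47.1 and 48.9 TPM (transcript abundance scaled by transcript length and library total) in replicates 1 to 3 of the control group and at 0, 0.08 and 0 TPM in the mutant group. All 15 markers of dental epithelium were detected in every library. Their summed level was 17419 to 48881 TPM in the control libraries and 6339 to 10779 TPM in the mutant libraries, and *Amelx*, which encodes amelogenin, made up much of the difference, with 4017 to 32209 against 9.45 to 699 TPM. Of the 15 genes, 6 passed the criterion as lower in edgeR with the replicate block described below, as did 1.92% of all genes. Without the block, 12 of the 15 had lower fitted levels, *Epcam* by little (log2 fold change −0.054). The other 3 had higher ones, with log2 fold changes of 0.37 for *Krt15*, 0.36 for *Fgfr2* and 0.27 for *Shh*. Markers of other cell types were also present, though not every marker in every library, and their values are given beside the results below.

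In the control libraries, the binding proteins were the most abundant transcripts of the system and *Igf1* the least. The captured tissue also held markers of mesenchyme and blood cells, given below, and which cells held the IGF transcripts was not tested. *Igfbp5* had 514 ± 39.6 TPM (SD, n = 3) and *Igfbp2* had 447 ± 102 TPM, with overlapping ranges. *Igfbp4* with 165 ± 53.8 TPM, *Igfbp3* with 150 ± 41.9 TPM and *Igf2* with 133 ± 36.4 TPM followed, each overlapping its neighbour. *Irs2* had 77.3 ± 14.8 TPM and overlapped *Igf2*. The next levels were separate from each other, with *Igf1r* at 49.5 ± 5.95 TPM, *Igf2r* at 27.2 ± 6.33 TPM and *Irs1* at 8.92 ± 2.68 TPM. *Igf1* had 5.54 ± 1.91 TPM and overlapped *Irs1*.

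In the mutant libraries, *Igf2* stood in the second place of this order with 884 ± 797 TPM (SD, n = 3). *Igfbp5* had 902 ± 265 TPM, *Igfbp3* 684 ± 526 TPM and *Igfbp4* 660 ± 286 TPM, and these 4 genes overlapped their neighbours in the order. *Igfbp2* came next, at 327 ± 30.6 TPM, below the range of *Igfbp4* but overlapping that of *Igfbp3*. The receptors and *Irs2* stayed at levels that overlapped those of the control group. Together, the 10 genes made up 0.158% ± 0.0152 of all TPM in the control libraries and 0.369% ± 0.190 in the mutant libraries.

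**Figure D1:**
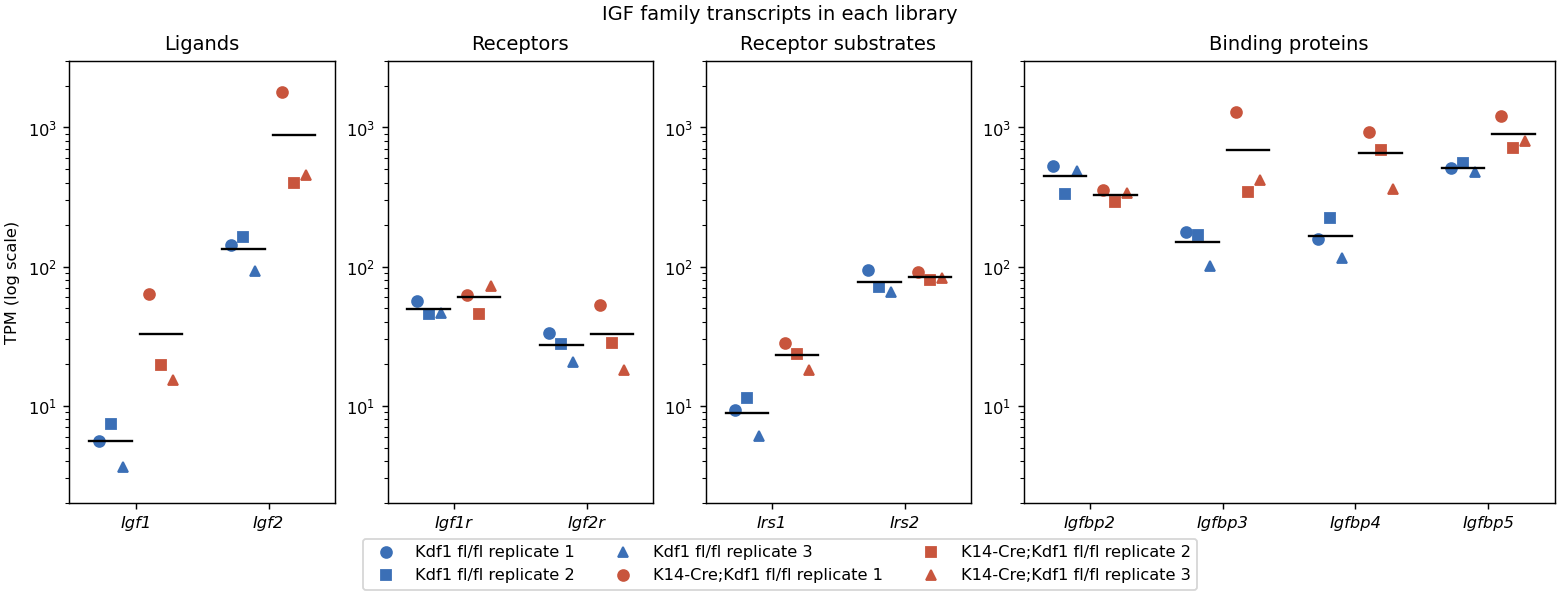
TPM on a log axis for each of the 10 genes in 4 panels by role, with 1 point per library (colour for genotype, shape for replicate number) and a black line at the mean of 3 libraries. *Igf1*, *Igf2*, *Irs1*, *Igfbp3*, *Igfbp4* and *Igfbp5* lie higher in all mutant libraries, and replicate 1 of that group is the highest for each of these 6 genes.

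The question put to these libraries was which transcripts of the system differ when epithelial *Kdf1* is absent. The log2 fold change (log2FC, mutant over control) was fitted to the estimated counts in edgeR by quasi-likelihood. The thresholds were those of the study, a log2FC of 1 or more in either direction and an adjusted p (Q value) of 0.05 or less. The test that the study used is not given in the sources used here. In the present fits, p was adjusted by Benjamini-Hochberg over all 14131 genes tested, and a gene past both thresholds passed the criterion. No member passed it in edgeR without a block, where 0.432% of all genes did. The unadjusted p was 0.05 or less in that test for 7 of 10 members and for 24.5% of all genes. The labels do not state that libraries of the same number are pairs. They were read as pairs only because their deviations from the group means correlated in these same data. The correlation over genes was 0.135, 0.324 and 0.499 for numbers 1, 2 and 3, against 0.144 for mutant 1 with control 2. With the replicate number as a block on this reading, 5 of 10 members passed in edgeR, all higher in mutant mice. These were *Igf1*, *Igf2*, *Irs1*, *Igfbp3* and *Igfbp4*, and of all genes tested 4.16% passed in that direction. DESeq2, another count model, called the same 5 genes without a block, where 5.05% of all genes passed as higher. The calls with the block depended on replicate 3. In fits chosen after seeing the data, 5 members passed without the replicate 1 libraries of both groups, 4 without the replicate 2 libraries and 0 without the replicate 3 libraries. The log2FC values in that last fit were 2.41 for *Igf1*, 2.37 for *Igf2*, 1.26 for *Irs1*, 1.88 for *Igfbp3* and 2.03 for *Igfbp4*, and calls over all genes fell from 860 to 56.

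For 6 of 10 members, all mutant values lay above all control values (CPM, counts scaled by library size), and none was lower without overlap. Among all genes tested, 14.5% were higher and 16.2% lower without overlap. The median log2 fold change of the 10 members was 1.03, and that of all genes tested was −0.0043. The members and the gene lists used below were chosen with earlier results of these data known. Their shares beside those of all genes are therefore descriptions and no test of the system.

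**Figure D2:**
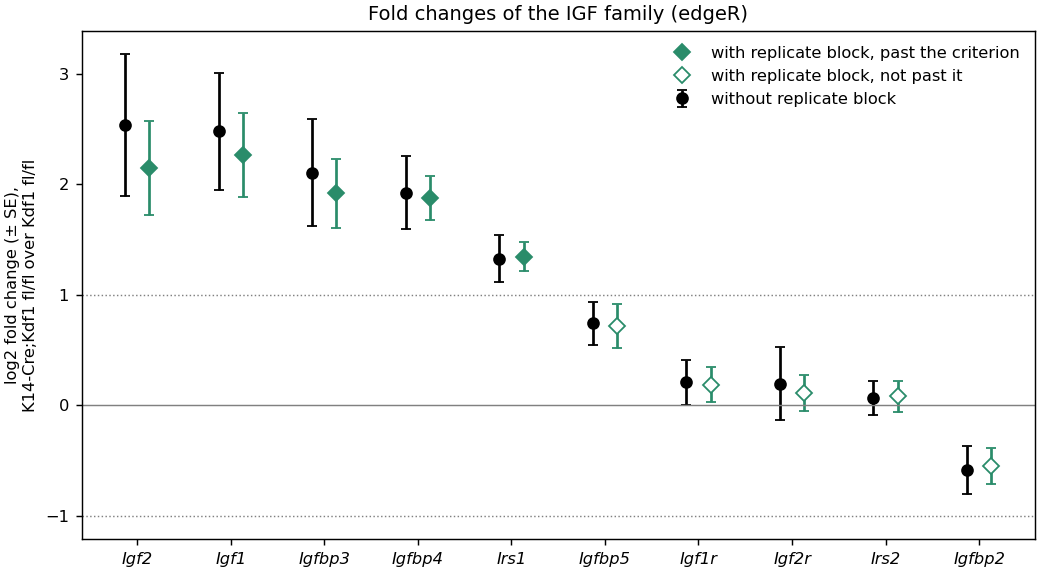
log2 fold change (± SE) of the 10 genes, mutant over control, from edgeR without (black circles) and with (green diamonds) the replicate block, with dotted lines at a log2 fold change of 1 and −1. Filled diamonds mark the 5 genes past the criterion with the block, which lie between 1.34 and 2.26.

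With all libraries, the ligands had the largest fold changes of the members, but without mutant replicate 1 *Igfbp4* (log2FC 1.67) was level with *Igf1* (1.67) and above *Igf2* (1.43). *Igf2* (gene identifier 16002), the main fetal growth factor of the family, was at 143, 164 and 92.8 TPM in replicates 1 to 3 of the control group. In the mutant group it was at 1804, 396 and 452 TPM. The groups did not overlap, but mutant replicate 1 was 4.26 times the mean of the other 2. The log2FC of *Igf2* was 2.53 (SE 0.64), with an adjusted p of 0.0863 in edgeR, and with the replicate block it was 2.15 (SE 0.43), with an adjusted p of 0.0370 in edgeR. DESeq2 gave *Igf2* an adjusted p of 0.0196. Without mutant replicate 1, the log2FC of *Igf2* fell to 1.43.

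*Igf1* (16000) encodes the ligand that also mediates growth hormone action after birth. It was at 5.55, 7.44 and 3.63 TPM in the control libraries and at 63.8, 19.7 and 15.2 TPM in the mutant libraries. Again no values overlapped, and mutant replicate 1 was 3.66 times the mean of the other 2. The log2FC was 2.48 (SE 0.53, adjusted p = 0.0692 in edgeR), or 2.26 (SE 0.38, adjusted p = 0.0246 in edgeR) with the block. It was 1.67 for *Igf1* without mutant replicate 1, and *Igf1* passed the criterion without mutant replicate 3 (adjusted p = 0.0491 in edgeR).

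The proportion between the ligands overlapped between the groups. *Igf2* was 25.7, 22.0 and 25.6 times as abundant as *Igf1* in the control libraries, on the TPM scale, and 28.3, 20.1 and 29.7 times as abundant in the mutant libraries. The ranges of this ratio overlapped, with means of 24.4 ± 2.09 and 26.0 ± 5.17 (SD, n = 3). *Igf2* held 95.3% to 96.7% of ligand TPM in all libraries. Since the labels do not state whether strand was used in counting, reads of *Igf2* and of *Igf2r* cannot be told apart from those of antisense transcripts at the same loci.

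Neither receptor passed the test. *Igf1r* (16001), the signalling receptor, was at 56.4, 45.8 and 46.4 TPM in the control libraries and at 62.3, 45.8 and 72.6 TPM in the mutant libraries. Its groups overlapped, with a log2FC of 0.21 (SE 0.20, adjusted p = 0.560 in edgeR). *Igf2r* (16004), the clearance receptor, was at 33.1, 27.9 and 20.5 TPM and at 52.8, 28.2 and 18.0 TPM in the same order of groups. Here mutant libraries lay above, within and below the control range, and the log2FC of 0.20 (SE 0.33, adjusted p = 0.750 in edgeR) turned to −0.22 without mutant replicate 1. *Igf2* was 2.00 to 3.57 times as abundant as *Igf1r* in the control libraries and 6.22 to 29.0 times in the mutant libraries, as TPM.

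Of the receptor substrates, *Irs1* was higher in all mutant libraries, while *Irs2* overlapped between groups. *Irs1* (16367), an adaptor that binds PI3-kinase once phosphorylated, was at 9.39, 11.3 and 6.04 TPM in the control libraries. It was at 28.2, 23.4 and 18.0 TPM in the mutant libraries, and the groups did not overlap. Mutant replicate 1 was 1.36 times the mean of the other 2, and within same-numbered pairs the mutant library was 3.00, 2.06 and 2.99 times as high as the control library. The log2FC was 1.33 (SE 0.21, adjusted p = 0.0526 in edgeR), or 1.34 (SE 0.13, adjusted p = 0.00626 in edgeR) with the block. It lay between 1.15 and 1.48 when each library was left out in turn, and *Irs1* passed the criterion without mutant replicate 3 (adjusted p = 0.0476 in edgeR).

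*Irs2* (384783), the second widely expressed substrate, was at 94.1, 71.5 and 66.2 TPM in the control libraries and at 91.1, 79.5 and 82.4 TPM in the mutant libraries. All mutant values lay inside the control range, with a log2FC of 0.07 (SE 0.15, adjusted p = 0.819 in edgeR). *Irs1* made up 9.07%, 13.7% and 8.36% of the TPM of both substrates in the control libraries and 23.6%, 22.7% and 18.0% in the mutant libraries, without overlap. The 2 substrates together had 86.2 ± 15.9 and 108 ± 10.3 TPM (SD, n = 3), with overlapping ranges.

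Of the substrates, *Irs1* alone passed with the block. As whole genes, *Igf1* and *Igf2* were higher together in the mutant libraries, and levels by start site were not measured. The sequences just before the transcription start are shown for both substrates, for *Igf1* and for the last of the 4 *Igf2* starts. They are the 150 bases before the start in RefSeq (build GRCm38.p6), 5′ to 3′ on the gene's strand, and the build used by the authors is not given in the sources used here. Capitals mark E-boxes (CANNTG, read on both strands), the letters bound by basic helix-loop-helix factors.
Irs1, chr1:82291440-82291589, minus strand: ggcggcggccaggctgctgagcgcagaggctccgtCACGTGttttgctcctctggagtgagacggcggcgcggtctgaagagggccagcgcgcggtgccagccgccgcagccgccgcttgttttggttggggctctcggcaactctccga
Irs2, chr8:11008930-11009079, minus strand: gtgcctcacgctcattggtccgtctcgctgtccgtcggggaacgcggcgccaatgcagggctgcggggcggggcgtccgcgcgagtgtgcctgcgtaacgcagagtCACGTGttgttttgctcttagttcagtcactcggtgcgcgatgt
Igf1, chr10:87860961-87861110, plus strand: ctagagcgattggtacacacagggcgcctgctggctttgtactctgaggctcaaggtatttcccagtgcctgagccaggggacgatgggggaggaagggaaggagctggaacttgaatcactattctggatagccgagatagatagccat
Igf2, chr7:142657497-142657646, minus strand: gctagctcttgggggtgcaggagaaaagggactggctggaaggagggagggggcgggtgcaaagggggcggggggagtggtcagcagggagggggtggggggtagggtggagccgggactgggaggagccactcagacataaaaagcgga

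Both substrates hold 1 E-box, and in both it reads CACGTG. The windows of *Igf1* and of all 4 *Igf2* starts hold none. Over the 14 start sites listed for the 10 members, 6 windows held an E-box, and 47.7% of all 32851 windows of this length in the table did. CACGTG was found in 4 of the 14 windows, for *Irs1*, *Irs2*, *Igf2r* and 1 start of *Igfbp2*, and in 4.30% of all windows. Of these genes *Irs1* alone passed with the block. The GC box letters GGGCGG were in 6 of the 14 windows and in 28.6% of all windows. The TATA box letters TATAAA were in 1 of the 14 and in 7.57% of all windows. The FOXO letters TGTTTAC, searched on both strands, were in none of the 14 windows and in 1.80% of all windows. These matches describe letters only, and the absence of a match in this window says nothing of binding.

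Of the binding proteins, 3 were higher in all mutant libraries and *Igfbp2* was not. *Igfbp3* (16009), the main carrier of IGFs in blood after birth, was at 179, 169 and 101 TPM in the control libraries and at 1291, 345 and 417 TPM in the mutant libraries. The groups did not overlap, and mutant replicate 1 was 3.39 times the mean of the other 2. *Igfbp3* had a log2FC of 2.10 (SE 0.48, adjusted p = 0.0771 in edgeR), or 1.92 (SE 0.32, adjusted p = 0.0233 in edgeR) with the block, and 1.38 without mutant replicate 1.

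*Igfbp4* (16010), a carrier that is cleaved by pappalysin proteases, was at 158, 222 and 116 TPM in the control libraries and at 930, 689 and 360 TPM in the mutant libraries. No values overlapped, and the mutant library was 5.89, 3.10 and 3.11 times as high as the control library of the same number. The log2FC was 1.92 (SE 0.33, adjusted p = 0.0580 in edgeR), or 1.88 (SE 0.20, adjusted p = 0.00695 in edgeR) with the block. *Igfbp4* passed the criterion without mutant replicate 3 (adjusted p = 0.0476 in edgeR).

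*Igfbp5* (16011), which binds to matrix as well as IGFs, was at 513, 555 and 475 TPM in the control libraries. In the mutant libraries it was at 1203, 708 and 795 TPM, all above the control range. The log2FC of 0.74 (SE 0.19, adjusted p = 0.0888 in edgeR) was under the size that the criterion asks for, and with the block the adjusted p was 0.0697 in edgeR. DESeq2 gave *Igfbp5* an adjusted p of 0.00302.

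*Igfbp2* (16008) was the only member with a lower fitted level in the mutant group. It was at 524, 331 and 486 TPM in the control libraries and at 353, 294 and 336 TPM in the mutant libraries. Control replicate 2 lay within the mutant range, so the groups overlapped, and the log2FC was −0.59 (SE 0.21, adjusted p = 0.156 in edgeR). Each mutant library was below the control library of its number, at 0.673, 0.887 and 0.690 times its TPM, and the adjusted p with the block was 0.0776 in edgeR.

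The make-up of the binding proteins differed between the groups. *Igfbp2* made up 35.1% ± 8.11 of the summed TPM of the 4 genes in the control libraries and 13.8% ± 4.16 in the mutant libraries (SD, n = 3), without overlap. The share of *Igfbp3* was 8.61% to 13.2% and 16.9% to 34.2% and that of *Igfbp4* 9.82% to 17.4% and 18.9% to 33.9% in the same order, also without overlap. The share of *Igfbp5* overlapped, at 40.4% ± 3.06 and 36.1% ± 5.05. Summed over the 4 genes, binding proteins had 1276 ± 97.4 TPM in the control libraries and 2573 ± 1045 TPM in the mutant libraries. Per TPM of ligand, they were at 9.28, 7.46 and 12.2 in the control libraries and at 2.02, 4.90 and 4.08 in the mutant libraries, and these ranges did not overlap. These ratios are descriptions of the libraries and carry no test.

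**Figure D3:**
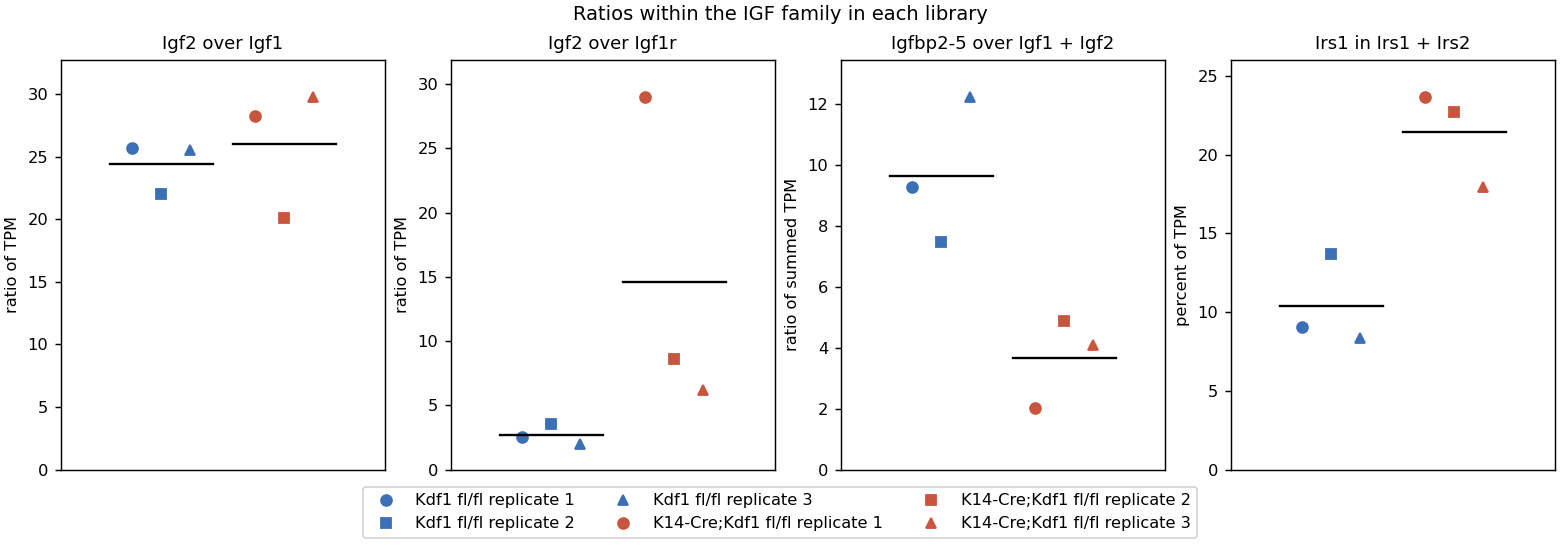
Ratios within each library on linear axes from 0, with 1 point per library and a black line at the mean of 3. *Igf2* over *Igf1* overlaps between genotypes, *Igf2* over *Igf1r* and the percent of *Irs1* are higher in all mutant libraries, and binding proteins over ligands are lower in all of them.

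The other genes of the IGF system were taken from a list of 31 genes, of which 29 were listed and 24 were tested. No gene of this list passed the criterion in edgeR without a block, and the unadjusted p was 0.05 or less for 9 of 24, against 24.5% of all genes. Without overlap, 11 were higher and 1 lower, against 14.5% and 16.2%. With the replicate block, 3 passed, all higher in mutant mice (4.16% of all genes), and DESeq2 called 5, all higher (5.05% of all genes). The median log2FC of the 24 genes was 0.42.

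Among regulators of IGF availability, *Pappa2*, which encodes a pappalysin that cleaves IGF binding proteins, passed with the block. It was at 0.42, 0.38 and 0.09 TPM in the control libraries and at 13.1, 1.86 and 1.29 TPM in the mutant libraries, so it was a scarce transcript outside mutant replicate 1. The log2FC of *Pappa2* was 4.08 (SE 1.00, adjusted p = 0.0840 in edgeR), or 3.67 (SE 0.51, adjusted p = 0.0155 in edgeR) with the block, and 2.44 without mutant replicate 1. *Igfbp7*, a related protein with weak IGF binding, was at 88.5, 110 and 94.5 TPM against 347, 233 and 169 TPM. Its log2FC was 1.28 (SE 0.21, adjusted p = 0.0556 in edgeR), or 1.24 (SE 0.21, adjusted p = 0.0217 in edgeR) with the block. *Adam12*, a metalloprotease that can cleave IGF binding proteins, had 2.25, 3.06 and 1.87 TPM against 24.6, 6.95 and 4.48 TPM and did not pass with the block (adjusted p = 0.0577 in edgeR). *Adam12* was called by DESeq2 (adjusted p = 0.000752) and passed in edgeR without mutant replicate 3 (adjusted p = 0.0492), and its log2FC of 2.22 was 1.27 without mutant replicate 1. *Stc1*, a secreted inhibitor of pappalysins, had a log2FC of 0.51 (SE 0.24), *Igfbpl1* one of 0.55 (SE 0.26) and the protease gene *Htra1* one of 0.36 (SE 0.31), with adjusted p values of 0.237, 0.237 and 0.499 in edgeR.

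Among receptors and transducers, *Grb10*, an adaptor that inhibits the insulin and IGF1 receptors, passed with the block. It was at 21.3, 45.6 and 17.6 TPM in the control libraries and at 247, 113 and 55.9 TPM in the mutant libraries. The log2FC of *Grb10* was 2.21 (SE 0.55, adjusted p = 0.0842 in edgeR), or 2.07 (SE 0.42, adjusted p = 0.0394 in edgeR) with the block, and 1.58 without mutant replicate 1. *Socs3*, a cytokine-induced inhibitor of receptor signalling, had 15.3, 15.98 and 11.1 TPM against 106, 22.0 and 25.1 TPM. It was called by DESeq2 (adjusted p = 0.0131) but not by edgeR with the block (adjusted p = 0.0860), and its log2FC was 1.66, or 0.69 without mutant replicate 1. The growth hormone receptor gene *Ghr* had a log2FC of 0.77 (SE 0.24, adjusted p = 0.122 in edgeR), with no overlap between groups. DESeq2 gave *Ghr* an adjusted p of 0.0360 with a log2FC of 0.79, under the size that the criterion asks for. Without mutant replicate 3, *Ghr* passed the criterion (log2FC 1.02, adjusted p = 0.0476 in edgeR). In that fit *Grb10* (adjusted p = 0.0491 in edgeR) and *Igfbp7* (adjusted p = 0.0476 in edgeR) also passed. The insulin receptor gene *Insr*, the adaptors *Shc1*, *Grb2*, *Gab1* and *Grb14*, the exchange factor gene *Sos1*, the phosphatase gene *Ptpn1* and *Socs2* had log2FC values between −0.42 for *Grb14* and 0.40 for *Shc1*, with adjusted p values from 0.159 to 0.969 in edgeR.

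RNA-binding proteins that bind *Igf2* mRNA did not pass the test. *Igf2bp2* had a log2FC of 0.44 (SE 0.15, adjusted p = 0.146 in edgeR) and *Igf2bp3* one of −0.25 (SE 0.13, adjusted p = 0.275 in edgeR). *Ins2* was at 0 to 0.53 TPM and *Igfbp1* at 0 to 0.80 TPM over all libraries, and neither passed the filter on low counts.

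**Figure D4:**
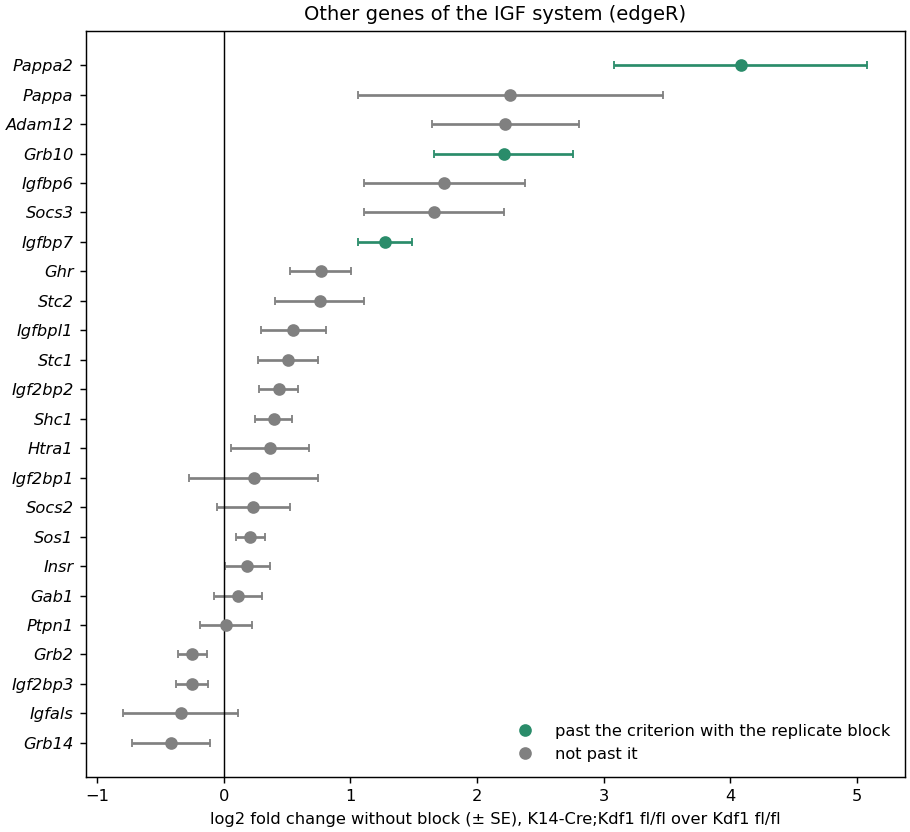
log2FC (± SE) of the 24 other tested genes of the IGF system from edgeR without the block, mutant over control. Green points mark *Pappa2*, *Grb10* and *Igfbp7*, the 3 genes past the criterion with the block, all to the right of 0.

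Levels of *Igf2* and *Irs1* were also compared with those of all 10324 genes with a mean of at least 10 CPM. Likeness was the root mean square difference of log2 CPM over the 6 libraries, after centring each gene on its mean. Nearest to *Igf2* was *Fap*, a fibroblast surface protease gene, with a difference of 0.113, followed by the cathepsin gene *Ctsk* with 0.162 and *Igf1* with 0.186. *Fap* was at 1.36 to 3.55 TPM in the control libraries and at 31.7, 7.77 and 6.22 TPM in the mutant libraries, and it reached the minimum mean only through its mutant values. Nearest to *Irs1* were the semaphorin gene *Sema6a* with 0.0892, *Sgce* with 0.0923 and the protease gene *Prss23* with 0.109. *Sema6a* was at 5.98, 8.15 and 4.17 TPM against 19.8, 18.45 and 12.4 TPM.

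Markers of cell types other than IEE were measured in the same libraries. In these bulk samples, more or fewer cells of a type cannot be told apart from more or less RNA per cell. Of 16 genes of dental papilla and other mesenchyme, 11 had a fitted level that was higher in mutant mice, and 9 passed the criterion as higher and 1 as lower in edgeR with the block (4.16% and 1.92% of all genes). *Twist1*, a mesenchymal transcription factor gene, was at 10.5 to 22.1 TPM in control and at 51.5 to 107 TPM in mutant libraries (adjusted p = 0.0498 in edgeR), and *Prrx1* was at 5.40 to 15.9 and 31.3 to 110 TPM. The 5 genes of the list with lower fitted levels were *Dspp*, *Dmp1*, *Col1a2*, *Col1a1* and *Dcn*, with log2FC values of −3.45, −1.51, −0.53, −0.46 and −0.052 without the block. The summed level of this list overlapped between groups, at 2133 to 10120 and 5385 to 7147 TPM. All 9 endothelial genes had higher fitted levels in mutant mice, with sums of 207 to 281 and 249 to 783 TPM, and so did all 9 immune genes, with sums of 76.9 to 164 and 146 to 489 TPM. With the block, 0 endothelial genes and 1 immune gene passed the criterion in edgeR. Mutant replicate 1 had the highest sum of both lists and of the erythroid genes. It also had the highest level of *Igf1*, *Igf2*, *Igf2r*, *Irs1*, *Igfbp3*, *Igfbp4* and *Igfbp5*, but not of *Igf1r*, *Irs2* or *Igfbp2*. Sums were 4369 to 6645 and 4461 to 7172 TPM for 6 erythroid genes, 58.3 to 138 and 46.1 to 61.5 TPM for 6 cartilage genes, 188 to 374 and 161 to 171 TPM for 6 neural and Schwann cell genes and 2.36 to 6.32 and 4.02 to 11.7 TPM for 8 skeletal muscle genes. No marker of any list was at 0 in all libraries, while 2 muscle and 2 cartilage genes were at 0 in at least 1. The part of these cells in the levels of the IGF genes was not tested.

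**Figure D5:**
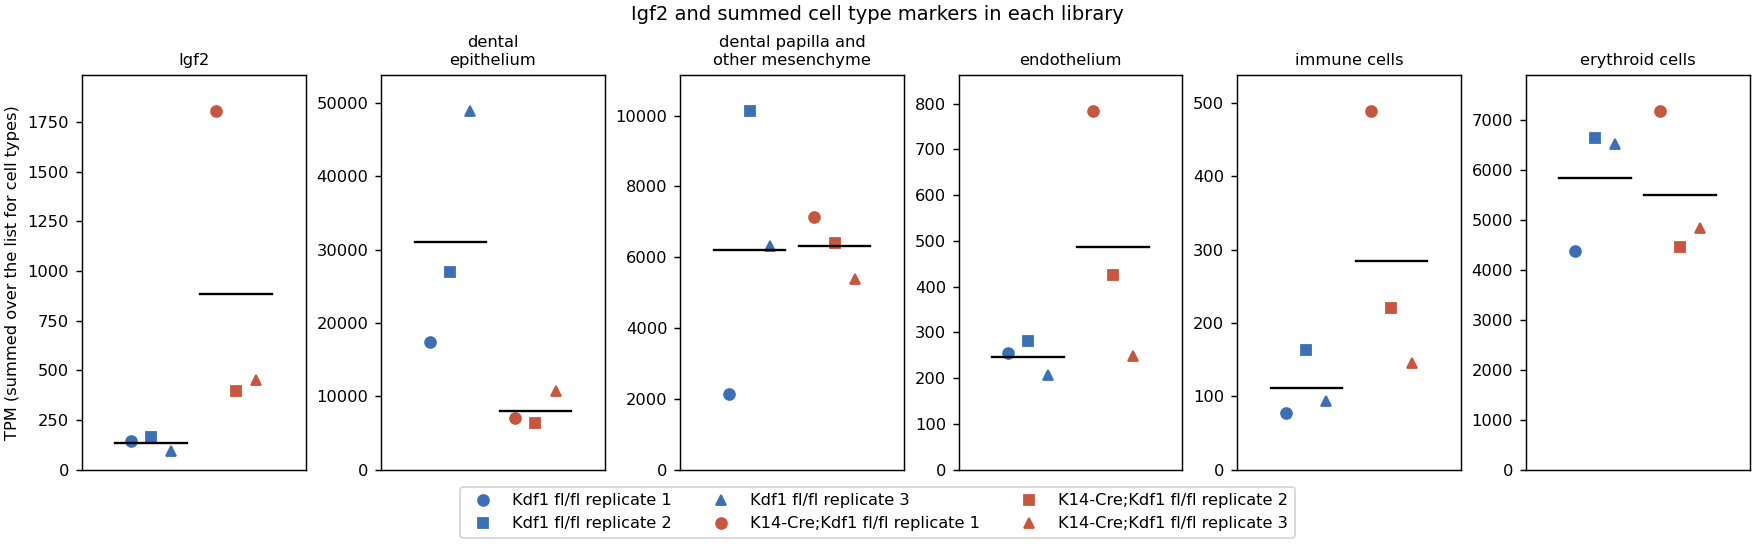
*Igf2* TPM and the summed TPM of 5 lists of cell type markers on linear axes from 0, with 1 point per library and a black line at the mean of 3. Mutant replicate 1 is the highest for *Igf2*, endothelium, immune cells and erythroid cells, and the epithelial sum is lower in all mutant libraries.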

How the data were processed

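RNA-seq was performed on laser-captured IEE of the mandibular first molar at E18.5 (3 control and 3 mutant libraries). Per the file headers, the authors deposited estimated counts, TPM and FPKM values per gene and library, together with group means. The deposited estimated counts are unnormalised, and 10.9% to 11.5% of the values per library were not whole. The deposited TPM values were scaled by the authors for transcript length and an equal library total. The deposited FPKM values and the authors' means were not used. The submitters' processing notes name BWA 0.7.12, Picard 2.6.0 and StringTie. The genome build is not given in the sources used here.

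Counts were rounded, filtered with filterByExpr (14131 genes kept), scaled by TMM and compared by robust quasi-likelihood F-tests, two-sided, with Benjamini-Hochberg adjustment (R 4.3.3, edgeR 4.0.16). DESeq2 1.42.0 and limma 3.58.1 were alternatives, as were other scalings, filters, thresholds, pseudocounts of 1 and 0.1 on TPM, and the omission of each library. Levels are TPM, since genes of different length are compared. The floor was set at 3 counts, at most 0.198 CPM in any library, and covers counting error only. Labels call the samples biological replicates, and counts of replicates differed by 36.0 to 76.7 times the sampling variance. Libraries with the same number deviated together from their group means (r across genes of 0.135, 0.324 and 0.499 for numbers 1, 2 and 3), and the numbers were read as pairs on this basis alone, although mutant library 1 was slightly closer to control library 2 (0.144). The procedure was run on simulated counts with the same spread between replicates for every gene, no pairing and no deviating library. That run cannot show how the fits perform with paired or deviating libraries.

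Named were all 10 members, *Kdf1*, and other genes of the IGF list with a mean of at least 5 TPM or past the criterion with or without the block. Imprinted genes were named when past it with the block. The 3 nearest genes were named for *Igf2* and *Irs1*. *Ins2*, *Igfbp1*, *Cdkn1c* and *Gnas*, the examples among markers and the sequences shown were chosen after values were seen. The members and lists were chosen with earlier results of these data known. *Ins1*, *H19* and *Meg3* were not analysed here. The 10 members have 14 start sites in the RefSeq promoter table.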

Additional observations from a re-analysis of the deposited data

How the results depend on the processing

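With DESeq2, 5 members, 5 other genes of the IGF system and 980 of all genes passed the criterion, and with the replicate block 5, 3 and 860. An adjusted p of at most 0.1 in edgeR gave 5, 4 and 669. Without the filter on low counts, 1 member (*Irs1*) and 103 genes passed. All genes past the criterion numbered 7 with DESeq2's size factors in edgeR, 9 with library size alone, 6 with at least 10 counts in every library, 6 with limma-voom and 16 on log2(TPM + 1). Leaving out 1 library gave 0 to 3 members, 0 to 4 other IGF genes and 1 to 465 of all genes, the highest numbers without mutant replicate 3. With the block, and without the replicate 1 libraries of both groups, 5 members, 3 other IGF genes and 885 of all genes passed. Without the replicate 2 libraries these were 4, 1 and 849, and without the replicate 3 libraries 0, 0 and 56. These last fits were chosen after seeing the data, and the cause of the differences was not tested. Over the alternatives other than these, the direction of the members changed in 2 of 170 values. *Igf2r* ran from −0.22 to 0.49 on the log2 scale when 1 library was left out (−0.093 with the block without replicate 1 of both groups), and *Irs2* from −0.029 to 0.23 (−0.0045 with the block without replicate 3 of both groups). *Gab1* ran from −0.035 to 0.29, *Htra1* from −0.0050 to 0.60 and *Ptpn1* from −0.25 to 0.18 in the same way, and *Ptpn1* was at −0.024 in limma-voom and −0.024 with the block.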

Other observations

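*Igf2* is an imprinted gene, expressed from 1 parental allele, and other imprinted genes with known roles in fetal growth were examined from a list of 16, of which 14 were listed and tested. The list did not include the member *Igf2r*, whose groups overlapped (log2FC 0.11 and adjusted p = 0.697 in edgeR with the block). With the replicate block, 6 of 14 passed the criterion in edgeR, all higher in mutant mice, where 4.16% of all genes passed in that direction. DESeq2 called 7, all higher (5.05% of all genes), and edgeR without the block called 0, with 9 at an unadjusted p of at most 0.05 (24.5% of all genes). *Grb10* is given above. *Dlk1* encodes a Notch-like protein that inhibits the differentiation of fat and other progenitors. Its level was 23.1, 43.7 and 23.3 TPM in the control libraries and 46.5, 107 and 60.7 TPM in the mutant libraries. Replicate 2 was the highest in both groups, and the log2FC with the block was 1.17 (SE 0.15, adjusted p = 0.00957 in edgeR). *Sgce*, an imprinted sarcoglycan gene that was also among the 3 genes nearest to *Irs1*, was at 21.7, 28.8 and 14.3 TPM against 65.7, 53.3 and 36.8 TPM, with a log2FC of 1.22 (SE 0.16, adjusted p = 0.0105 in edgeR) with the block. *Peg10*, *Ndn* and *Mest* had log2FC values of 1.36, 1.04 and 1.03 in the same fit. The groups of *Mest* overlapped, at 84.9 to 149 TPM in the control libraries and 124 to 378 TPM in the mutant libraries. Those of *Peg10* and *Ndn* overlapped as TPM but not as CPM. *Cdkn1c*, a cell cycle inhibitor gene, was at 73.6, 127 and 80.7 TPM against 275, 172 and 107 TPM, with overlap, and did not pass (adjusted p = 0.122 in edgeR with the block). *Gnas* was at 2089 to 2425 TPM and 2216 to 2942 TPM, with a log2FC of 0.05 (SE 0.17) without the block. Expression by parental allele was not analysed here.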
